A study of Mus musculus with 12 samples.

Results

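The interferon response genes are 44 genes that interferons are known to switch on or to work through, among them the OAS family, sensors of viral nucleic acid, antiviral effectors, the ISG15 system, the transcription factors of the pathway, PARP proteins and the IRG and GBP GTPases. They were chosen by gene symbol, from a list of names drawn up with earlier results of these data known, and all 44 were found among the 55450 genes of the deposited count tables. RNA was measured in mouse T cells taken from Pkm2 knockout (KO) or wild type (WT) mice and labelled as CD4 T cells, in 3 libraries for each of 4 groups. The stimulated KO and stimulated WT groups were kept for 24 h in medium with 25 ng/mL human IL7, a survival cytokine for T cells, on plates coated with 1 ug/mL anti-CD3 and 2 ug/mL anti-CD28, antibodies that trigger the T cell receptor and its co-receptor. The resting KO and resting WT groups had the same IL7 without the antibodies. The culture time is also labelled as overnight and the source of the cells both as splenocytes and as spleen with lymph nodes. The allele, the Cre driver (if any), the strain, the age and the sex of the mice are not given in the sources used here, and no label ties each library to an animal of its own. Hence p-values measure the spread between libraries, which may be technical.

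Interferons bind receptors that activate JAK kinases, which phosphorylate STAT proteins. Type I and type III interferons act mainly through a complex that contains STAT2 and IRF9 and binds the interferon-stimulated response element (ISRE) in promoters, and interferon gamma acts mainly through factors that bind the gamma-activated site (GAS). Activated CD4 T cells can themselves secrete interferon gamma. Resting immune cells hold a tonic level of these transcripts that depends on low amounts of type I interferon.

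Pkm, which encodes pyruvate kinase M, the last enzyme of glycolysis, checked the labels. Levels are in CPM, the count of a gene scaled to a fixed library total. Pkm stood at 1056, 1065 and 1036 CPM in the stimulated KO libraries, against 2483, 2450 and 2521 CPM in the stimulated WT libraries. At rest it stood at 172, 195 and 188 CPM in KO cells and at 424, 431 and 509 CPM in WT cells. It was lower in KO cells in both conditions, by the quasi-likelihood test of edgeR, adjusted after Benjamini and Hochberg over all genes (log2 fold change -1.23, adjusted p = 1.4e-08, stimulated; -1.30, adjusted p = 0.0041, resting). The gene-level count joins the M1 and M2 isoforms. Library totals ran from 63266477 to 76891786 counts. Cd4 was present in every library, at a mean of 392 CPM in stimulated KO, 377 CPM in stimulated WT, 885 CPM in resting KO and 731 CPM in resting WT cells, and transcripts of B cells and myeloid cells were present as well. Xist averaged 1031 and 947 CPM in stimulated KO and WT cells and 0.0705 and 0.0573 CPM in resting KO and WT cells, and the Y-linked Ddx3y had 0 counts in every stimulated library, which allows up to 0.0446 CPM, and averaged 156 and 150 CPM in resting KO and WT cells. By these transcripts the resting libraries read as male cells and the stimulated libraries as female cells. Stimulation and the sex of the cells thus changed together between the libraries. Their parts in a difference between stimulated and resting cells, named below as a rise, a fall or a response, cannot be told apart.

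In stimulated cells, 19 of the 44 interferon response genes rose in KO cells against WT cells, 1 fell, and 24 did not pass the test (adjusted p below 0.05 over all 15090 genes tested, 3 libraries each). Among all genes tested, 3.37% rose and 1.40% fell. The members' median log2 fold change was 0.48, against -0.00016 over all genes tested. The OAS family, the sensors Ifi213 and Dhx58 and the effectors Mx1, Rsad2 and Ifit1 had the largest changes among those that passed, between 1.88-fold and 3.01-fold. The exception in direction was Gbp2, a GTPase induced by interferon gamma, which fell to 0.891 of its WT level. For 27 members every KO library lay above every WT library, as it did for 13.4% of all genes tested, and for 1 member, Gbp2, every KO library lay below, as for 14.6% of all genes tested.

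**Figure D1:**
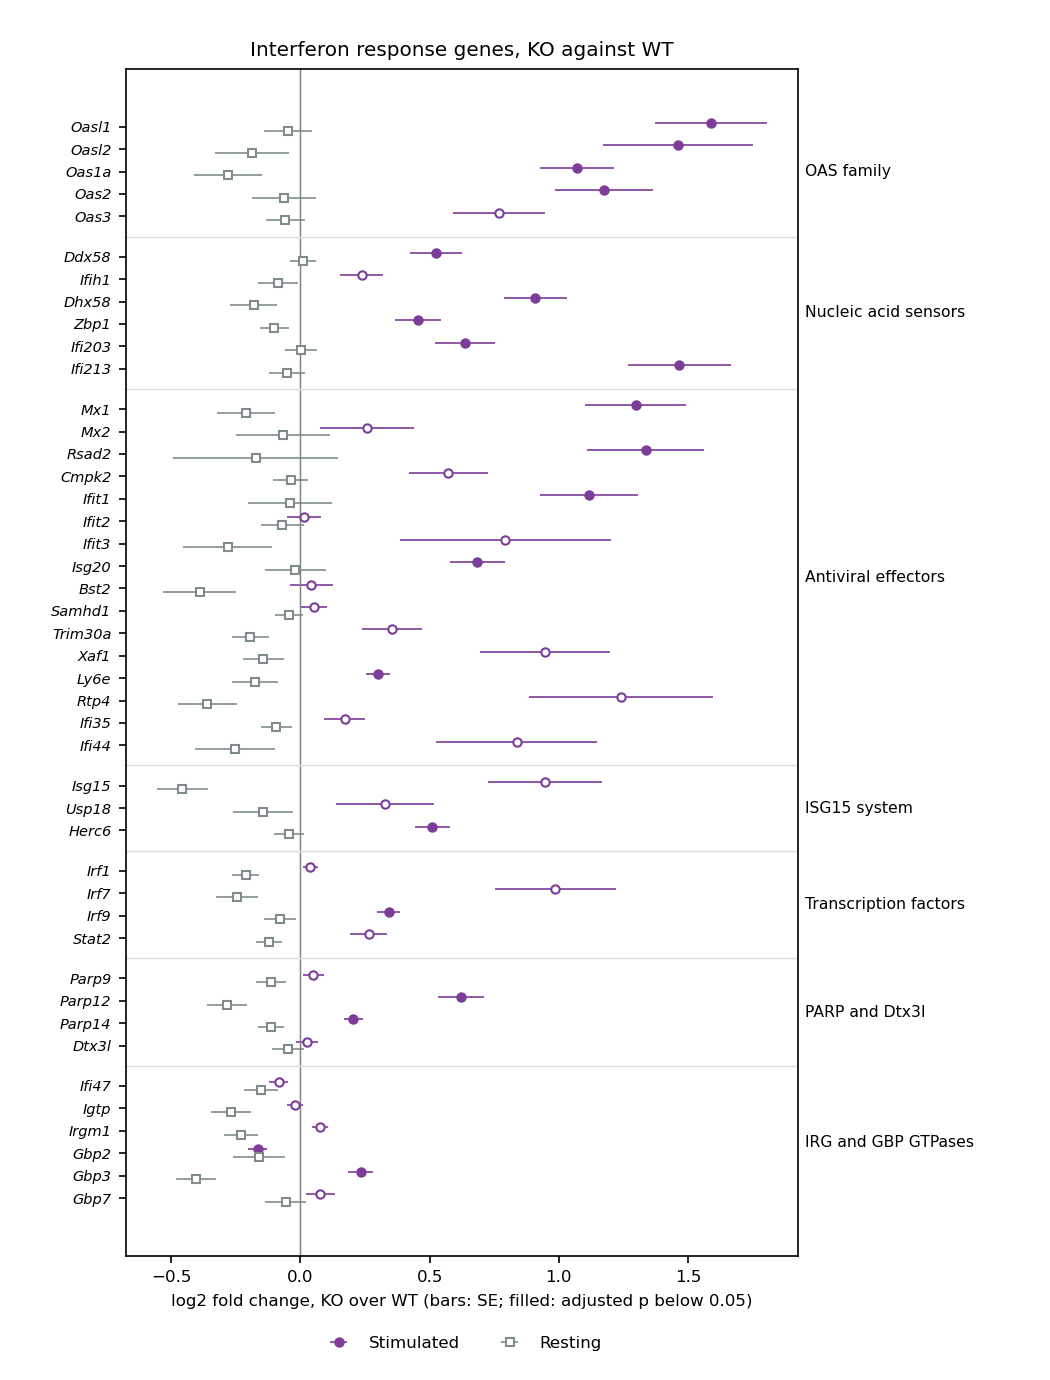
Log2 fold change of KO over WT for the 44 members, grouped by role, in stimulated cells (circles) and in resting cells (squares), with SE bars and filled symbols where the adjusted p was below 0.05. In stimulated cells the members spread between -0.17 and 1.59, with 20 filled symbols, and in resting cells between -0.46 and 0.01, with none.

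The promoters of 6 members are shown because these genes span the range of the stimulated response, from Oasl1, the member with the largest log2 fold change, to Gbp2, the member that fell. Each is the RefSeq sequence of the mouse build GRCm38.p6 from 250 bases before to 50 bases after the start of the gene, read 5′ to 3′ along the gene, and capitals mark the ISRE core GAAANNGAAA or its reverse complement TTTCNNTTTC. Their places are chr5:114922990-114923289 on the plus strand for Oasl1, chr5:120907476-120907775 on the minus strand for Oas1a, chr1:173599223-173599522 on the minus strand for Ifi213, chr12:26456403-26456702 on the minus strand for Rsad2, chr19:34640639-34640938 on the plus strand for Ifit1 and chr3:142620413-142620712 on the plus strand for Gbp2.
Oasl1: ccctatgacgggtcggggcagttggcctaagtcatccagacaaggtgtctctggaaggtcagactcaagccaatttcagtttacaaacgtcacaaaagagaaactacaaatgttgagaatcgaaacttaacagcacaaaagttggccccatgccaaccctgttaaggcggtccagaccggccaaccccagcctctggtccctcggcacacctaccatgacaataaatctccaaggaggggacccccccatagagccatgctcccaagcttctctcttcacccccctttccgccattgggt
Oas1a: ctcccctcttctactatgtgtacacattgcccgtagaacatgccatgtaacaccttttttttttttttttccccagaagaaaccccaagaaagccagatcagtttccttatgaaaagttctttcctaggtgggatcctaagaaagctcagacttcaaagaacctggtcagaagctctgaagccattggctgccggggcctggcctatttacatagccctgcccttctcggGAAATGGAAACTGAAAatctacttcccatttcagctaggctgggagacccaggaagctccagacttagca
Ifi213: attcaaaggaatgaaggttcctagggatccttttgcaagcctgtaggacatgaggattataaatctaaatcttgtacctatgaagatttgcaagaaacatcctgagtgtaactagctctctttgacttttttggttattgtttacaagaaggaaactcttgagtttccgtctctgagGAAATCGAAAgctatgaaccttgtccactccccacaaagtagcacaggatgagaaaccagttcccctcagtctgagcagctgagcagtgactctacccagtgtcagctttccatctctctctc
Rsad2: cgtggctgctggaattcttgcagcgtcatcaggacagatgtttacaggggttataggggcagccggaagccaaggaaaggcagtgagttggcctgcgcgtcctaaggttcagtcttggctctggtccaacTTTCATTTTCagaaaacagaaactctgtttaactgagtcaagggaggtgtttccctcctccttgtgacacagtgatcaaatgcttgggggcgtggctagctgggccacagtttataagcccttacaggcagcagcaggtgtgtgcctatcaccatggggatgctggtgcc
Ifit1: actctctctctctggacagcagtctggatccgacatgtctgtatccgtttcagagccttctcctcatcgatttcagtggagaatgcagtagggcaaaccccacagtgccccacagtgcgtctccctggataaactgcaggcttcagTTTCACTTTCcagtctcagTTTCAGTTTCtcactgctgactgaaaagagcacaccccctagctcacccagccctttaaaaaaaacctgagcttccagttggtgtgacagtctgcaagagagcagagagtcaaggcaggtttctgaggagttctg
Gbp2: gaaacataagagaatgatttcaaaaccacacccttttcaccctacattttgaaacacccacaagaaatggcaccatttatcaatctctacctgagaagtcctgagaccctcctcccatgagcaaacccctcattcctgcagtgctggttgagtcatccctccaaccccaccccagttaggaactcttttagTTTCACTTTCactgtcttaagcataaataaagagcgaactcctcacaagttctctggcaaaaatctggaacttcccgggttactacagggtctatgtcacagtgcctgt
Oas1a held 2 overlapping cores, starting 20 and 14 bases before the start of the gene, and Ifit1 held 2 cores, 104 and 85 bases before it. Ifi213, Rsad2 and Gbp2 held 1 core each, 73, 120 and 59 bases before the start. Oasl1 had no core of these letters in this window.

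Of the 44 members, 34 had a promoter in the RefSeq table. The ISRE core, searched on both strands, was in a promoter of 18 of these 34 members, 52.9%, against 1079 of 27025 genes, 3.99%. The GAS core TTCNNNGAA, which reads the same on both strands and was searched without regard to ISRE overlap, was in a promoter of 9 of the 34 members, 26.5%, against 2582 of 27025 genes, 9.55%. By role, the ISRE core was found in 2 of 4 OAS genes, 4 of 4 sensors, 5 of 12 effectors, 1 of 2 genes of the ISG15 system, 1 of 4 transcription factors, 0 of 2 PARP-group genes and 5 of 6 GTPases. The GTPases, with the core in 5 of 6 promoters, had the lowest median log2 fold change of the roles in stimulated KO cells, 0.03. A match to these letters describes the sequence and is not evidence of binding.

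The OAS enzymes sense double-stranded RNA and make 2′-5′ oligoadenylates, which activate RNase L, while the OAS-like proteins act on viral RNA sensing and replication in other ways. In stimulated cells 4 of the 5 rose in KO cells, with a median log2 fold change of 1.18. Oasl1, reported in mice to restrain translation of Irf7, stood at 3.49, 4.47 and 3.13 CPM in the KO libraries and at 1.10, 1.67 and 0.942 CPM in the WT libraries. The groups did not overlap, and the level in KO cells was 3.01-fold higher (log2 1.59 ± 0.22 SE, adjusted p = 0.0070, edgeR). Oasl2, an OAS-like protein that has enzyme activity, stood at 7.16, 7.72 and 5.91 CPM in KO against 2.16, 3.79 and 1.66 CPM in WT cells, without overlap (2.76-fold, adjusted p = 0.044). Oas2 stood at 2.84, 3.18 and 2.83 CPM in KO against 1.51, 1.52 and 0.912 CPM in WT cells, also apart (2.26-fold, adjusted p = 0.010). These 3 genes were expressed at a few CPM, and in each the lowest KO library exceeded the highest WT library. Oas1a stood at 7.31, 9.07 and 9.14 CPM in KO against 3.48, 5.05 and 3.71 CPM in WT cells (2.10-fold, adjusted p = 0.0070). Oas3 had 22.0 ± 1.21 CPM in KO and 13.0 ± 3.40 CPM in WT cells (SD, n = 3 each) and did not pass (adjusted p = 0.076). Within the WT group, replicate 2 had the highest value of each of the 5 genes.

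Of the 6 sensors of foreign nucleic acid, 5 rose in stimulated KO cells, with a median log2 fold change of 0.58. Ifi213, a member of the p200 family of HIN proteins, stood at 4.63, 4.67 and 4.62 CPM in the KO libraries and at 1.76, 2.19 and 1.11 CPM in the WT libraries. The KO libraries lay within a narrow band and the WT libraries spread about 0.544 CPM (SD) around their mean (2.77-fold, adjusted p = 0.0070, edgeR). Dhx58, which encodes LGP2, a regulator of the other RIG-I-like receptors, stood at 9.11, 10.5 and 9.77 CPM in KO against 4.17, 5.90 and 5.67 CPM in WT cells (1.88-fold, adjusted p = 0.0061). Ifi203, another p200 gene, stood at 23.5, 27.0 and 27.4 CPM in KO against 15.1, 20.1 and 15.3 CPM in WT cells (1.55-fold, adjusted p = 0.032), and it overlaps Mndal in the annotation, so that reads can be shared between them. All KO libraries exceeded all WT libraries for these 3 genes. Ddx58, which encodes the RNA sensor RIG-I, stood at 10.3, 11.2 and 10.4 CPM in KO against 7.51, 8.47 and 6.31 CPM in WT cells (1.44-fold, adjusted p = 0.020). Zbp1, a sensor of Z-form nucleic acid that can start necroptosis, had 55.0 ± 0.832 CPM in KO and 40.4 ± 5.80 CPM in WT cells (1.37-fold, adjusted p = 0.034). Ifih1, which encodes the RNA sensor MDA5, had 14.6 ± 1.60 CPM in KO and 12.4 ± 0.761 CPM in WT cells and did not pass (adjusted p = 0.14).

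Of the 16 antiviral effectors, 5 rose in stimulated KO cells and none fell, with a median log2 fold change of 0.63. Rsad2, which encodes viperin, an enzyme that makes a chain-terminating nucleotide, stood at 2.03, 2.41 and 1.51 CPM in KO against 0.799, 0.968 and 0.608 CPM in WT cells (2.52-fold, adjusted p = 0.013, edgeR). Mx1, a dynamin-like GTPase that blocks influenza virus, stood at 1.72, 2.68 and 2.04 CPM in KO against 0.814, 1.00 and 0.820 CPM in WT cells (2.46-fold, adjusted p = 0.0080). Ifit1, which binds viral RNA by its cap, stood at 3.45, 3.49 and 2.71 CPM in KO against 1.51, 1.86 and 1.11 CPM in WT cells (2.17-fold, adjusted p = 0.013). The groups did not overlap for these 3 genes, which are low in both genotypes: the 3 stimulated libraries of a group held 391 counts of Rsad2 in KO and 154 in WT, and 425 of Mx1 in KO and 171 in WT. Isg20, an exonuclease, stood at 6.30, 6.02 and 6.19 CPM in KO against 3.48, 4.49 and 3.60 CPM in WT cells (1.61-fold, adjusted p = 0.0094). Ly6e, a membrane protein that hinders the entry of some viruses, stood at 487, 499 and 501 CPM in KO against 371, 426 and 417 CPM in WT cells (1.23-fold, adjusted p = 0.0081). The difference in Ly6e was smaller in fold than in the genes above, with the groups still apart.

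The other 11 effectors did not pass. Among them Rtp4, Xaf1, Ifi44, Ifit3 and Cmpk2 had point estimates from 0.57 to 1.24 on the log2 scale with wide errors. Rtp4 had 3.27 ± 0.711 CPM in KO and 1.39 ± 0.658 CPM in WT cells (log2 1.24 ± 0.36 SE, adjusted p = 0.11). Ifit3 had 2.40 ± 0.766 CPM in KO and 1.39 ± 0.662 CPM in WT cells, with overlap between the groups (log2 0.79 ± 0.41 SE, adjusted p = 0.34). Ifit2, the near relative of Ifit1 and Ifit3, had 28.1 ± 1.32 CPM in KO and 27.9 ± 2.33 CPM in WT cells (log2 0.01 ± 0.06 SE, adjusted p = 0.93). Bst2 and Samhd1 also had small differences: Bst2, or tetherin, which holds budding virus at the cell surface, had 113 ± 2.78 CPM in KO and 111 ± 14.4 CPM in WT cells (log2 0.04), and Samhd1, which degrades nucleotides, had 466 ± 14.5 CPM in KO and 452 ± 35.4 CPM in WT cells (log2 0.05). Trim30a, Mx2 and Ifi35 had log2 fold changes of 0.35, 0.26 and 0.17.

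ISG15 is a ubiquitin-like protein that HERC6 attaches to target proteins in mice and USP18 removes, and USP18 also dampens signalling by the type I interferon receptor. Of these 3 genes Herc6 rose, to 15.8, 16.2 and 15.8 CPM in stimulated KO libraries, against 10.6, 12.4 and 10.7 CPM in stimulated WT libraries (1.42-fold, adjusted p = 0.0050, edgeR). Isg15 stood at 8.81, 10.1 and 8.53 CPM in KO against 3.90, 6.70 and 3.77 CPM in WT cells. Its groups did not overlap, with WT replicate 2 above the other WT libraries, and the log2 fold change of 0.95 ± 0.22 did not pass (adjusted p = 0.069). Usp18 had 15.5 ± 0.441 CPM in KO and 12.4 ± 3.55 CPM in WT cells (adjusted p = 0.40).

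Among the 4 transcription factors Irf9, the DNA-binding subunit of the ISRE-binding complex, rose, to 67.9, 67.2 and 66.4 CPM in stimulated KO libraries, against 52.0, 57.1 and 50.9 CPM in stimulated WT libraries (1.27-fold, adjusted p = 0.0042, edgeR). It overlaps Rnf31 in the annotation. Irf7, which amplifies type I interferon production, stood at 8.41, 8.71 and 7.31 CPM in KO against 3.69, 5.79 and 2.93 CPM in WT cells. Irf7 overlaps Phrf1 in the annotation. Its groups lay apart and its log2 fold change of 0.99 ± 0.23 did not pass (adjusted p = 0.070). Stat2, the partner of IRF9, had 66.7 ± 1.87 CPM in KO and 55.9 ± 6.49 CPM in WT cells (log2 0.26, adjusted p = 0.087). Irf1, a target of interferon gamma and of T cell receptor signalling, had 304 ± 5.08 CPM in KO and 297 ± 4.91 CPM in WT cells (log2 0.04, adjusted p = 0.49).

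Of the PARP group, whose enzymes attach ADP-ribose to proteins, Parp12 and Parp14 rose. Parp12 stood at 7.29, 7.51 and 7.12 CPM in stimulated KO libraries, against 5.09, 4.95 and 4.27 CPM in stimulated WT libraries (1.54-fold, adjusted p = 0.0073, edgeR). Parp14 stood at 144, 146 and 157 CPM in KO against 128, 134 and 127 CPM in WT cells (1.15-fold, adjusted p = 0.016). Both genes separated the genotypes. Parp9 and its partner Dtx3l, a ubiquitin ligase whose gene overlaps it, had log2 fold changes of 0.05 and 0.03 (adjusted p = 0.52 and 0.79).

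The IRG and GBP GTPases act on the vacuoles of intracellular pathogens and respond strongly to interferon gamma. Their median log2 fold change in stimulated cells was 0.03, with 1 gene higher and 1 lower of 6. Gbp2 stood at 894, 926 and 922 CPM in KO against 1082, 1019 and 990 CPM in WT cells (log2 -0.17 ± 0.04, adjusted p = 0.036, edgeR). Gbp3 stood at 59.9, 65.9 and 66.3 CPM in KO against 51.6, 57.6 and 55.1 CPM in WT cells (1.18-fold, adjusted p = 0.030). Gbp2 and Gbp3, both without overlap between the groups, thus passed in opposite directions. Ifi47, Igtp, Irgm1 and Gbp7 had log2 fold changes from -0.08 to 0.08, at levels between 102 and 787 CPM in WT cells.

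**Figure D2:**
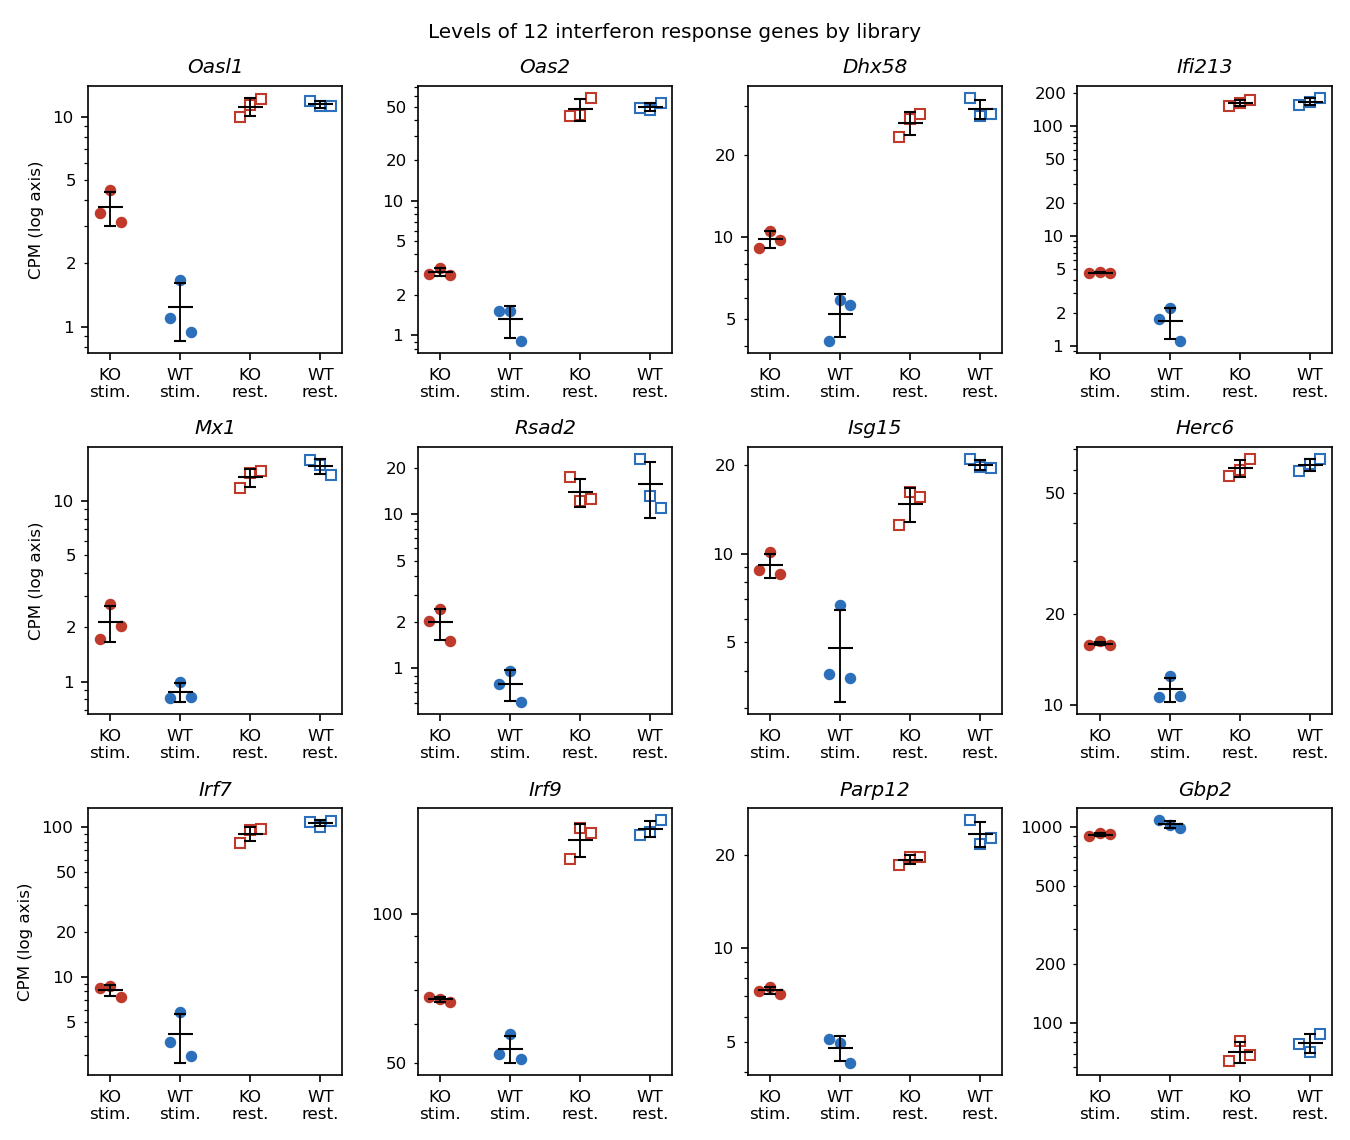
CPM of 12 members in each library on a log axis, with stimulated KO, stimulated WT, resting KO and resting WT libraries from left to right, and the mean with SD as black bars. Oasl1, Oas2, Dhx58, Ifi213, Mx1, Rsad2, Isg15, Herc6, Irf7, Irf9 and Parp12 have their KO points above their WT points in stimulated cells and higher levels at rest, and Gbp2 is higher in stimulated cells, with KO (914 CPM on average) below WT (1030 CPM).

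In resting cells none of the 44 members passed the test between KO and WT, in either direction, where 0.0180% of 16637 genes rose and 0.0180% fell. At an unadjusted p below 0.05, 0 members were higher and 11 lower in KO cells, against 5.61% and 8.11% of all genes, and DESeq2's Wald test called 0 members higher and 4 lower in a fit that called 518 of all 16637 genes. The members' median log2 fold change was -0.13, against 0.0088 over all genes tested, and 2 of 44 estimates were above 0, against 52.1% over all genes. In 13 members every KO library lay below every WT library, as in 10.0% of all genes tested, and in none did every KO library lie above, as in 9.86% of all genes.

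The 3 members with the most negative resting estimates belong to different roles. Isg15 stood at 12.5, 16.2 and 15.6 CPM in resting KO libraries, against 21.0, 19.8 and 19.6 CPM in resting WT libraries (log2 -0.46 ± 0.10 SE, adjusted p = 0.23, edgeR). Gbp3 stood at 26.0, 30.1 and 28.9 CPM in KO against 40.5, 35.9 and 35.3 CPM in WT cells (log2 -0.40 ± 0.08, adjusted p = 0.20). Bst2 stood at 38.0, 44.7 and 41.5 CPM in KO against 65.1, 50.1 and 46.3 CPM in WT cells (log2 -0.39 ± 0.14, adjusted p = 0.33). The genotypes did not overlap for any of the 3, and none passed. Oasl1 and Ifi213, which had large differences in stimulated cells, were close at rest. Oasl1 had 11.1 ± 1.11 CPM in KO and 11.4 ± 0.406 CPM in WT cells, and Ifi213 had 162 ± 10.7 CPM in KO and 167 ± 12.4 CPM in WT cells. Others with large stimulated estimates had resting log2 fold changes of -0.04 (Ifit1), -0.06 (Oas2), -0.17 (Rsad2), -0.19 (Oasl2), -0.21 (Mx1), -0.28 (Oas1a) and -0.36 (Rtp4). For Rtp4 every resting KO library lay below every resting WT library.

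Most of these genes were lower in stimulated than in resting cells, in both genotypes. In KO cells 36 of 44 members fell and 7 rose, and in WT cells 37 fell and 7 rose, against 43.2% lower and 39.6% higher of all genes in KO and 44.8% lower and 39.3% higher in WT cells. The members' median log2 fold change was -1.33 in KO cells and -1.98 in WT cells, against -0.11 in KO and -0.14 in WT cells over all genes. Most genes of the transcriptome passed in this comparison, so a member's size of change says more than its call. Markers of other cells were lower as well: all 17 myeloid markers fell in both genotypes, with a median of -4.15 in KO and -5.73 in WT cells, and 14 of 19 B cell markers fell in KO (median -1.48) and 16 of 19 in WT cells (median -2.26). Of 9 dendritic cell markers 7 fell in KO (median -5.18) and 8 in WT cells (median -5.75), while the medians over 14 CD4 T cell markers were -0.85 in KO and -0.83 in WT cells. The part of these cells in the members' fall was not tested. All 5 OAS genes and all 6 sensors fell in both genotypes, and the GTPases went the other way, with 5 of 6 higher.

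Ifi213 fell the most, to 4.64 ± 0.0287 CPM in stimulated KO cells, against 162 ± 10.7 CPM in resting KO cells, and to 1.69 ± 0.544 CPM in stimulated WT cells, against 167 ± 12.4 CPM in resting WT cells. The stimulated level was 0.0286 of the resting level in KO and 0.0101 in WT cells. The log2 change of Oas2 was -4.02 in KO and -5.24 in WT cells, and that of Irf7 was -3.47 in KO and -4.69 in WT cells. Ddx58 had -3.74 in KO and -4.24 in WT cells. Each of these 4 genes fell in both genotypes. The only fall that 1 genotype lacked was that of Ifi35, with a log2 fold change of -0.02 in KO (adjusted p = 0.82) and -0.27 in WT cells (adjusted p = 0.0071), and that difference itself did not pass (adjusted p = 0.31).

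The 7 genes that rose with stimulation in both genotypes were Gbp2, Igtp, Irgm1, Ifi47, Gbp3, Bst2 and Irf1. Gbp2 rose to 914 ± 17.2 CPM in stimulated KO cells, against 71.4 ± 8.65 CPM in resting KO cells, and to 1030 ± 46.8 CPM in stimulated WT cells, against 79.2 ± 8.67 CPM in resting WT cells, which is 12.8-fold in KO and 13.0-fold in WT. Igtp rose 4.90-fold in KO and 4.17-fold in WT cells, and Irgm1 rose 4.31-fold in KO and 3.53-fold in WT cells. Per kilobase of exon, the scale on which genes can be compared, Igtp (382 CPM per kb) and Gbp2 (363 CPM per kb) were the highest members in stimulated KO cells, and Gbp2 (410 CPM per kb) and Igtp (389 CPM per kb) in stimulated WT cells. At rest Ly6e was the highest, at 234 CPM per kb in KO and 262 CPM per kb in WT cells. Ifi44 was the lowest in all 4 groups, at 0.220 CPM per kb in stimulated KO, 0.124 in stimulated WT, 0.786 in resting KO and 0.931 in resting WT cells.

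**Figure D3:**
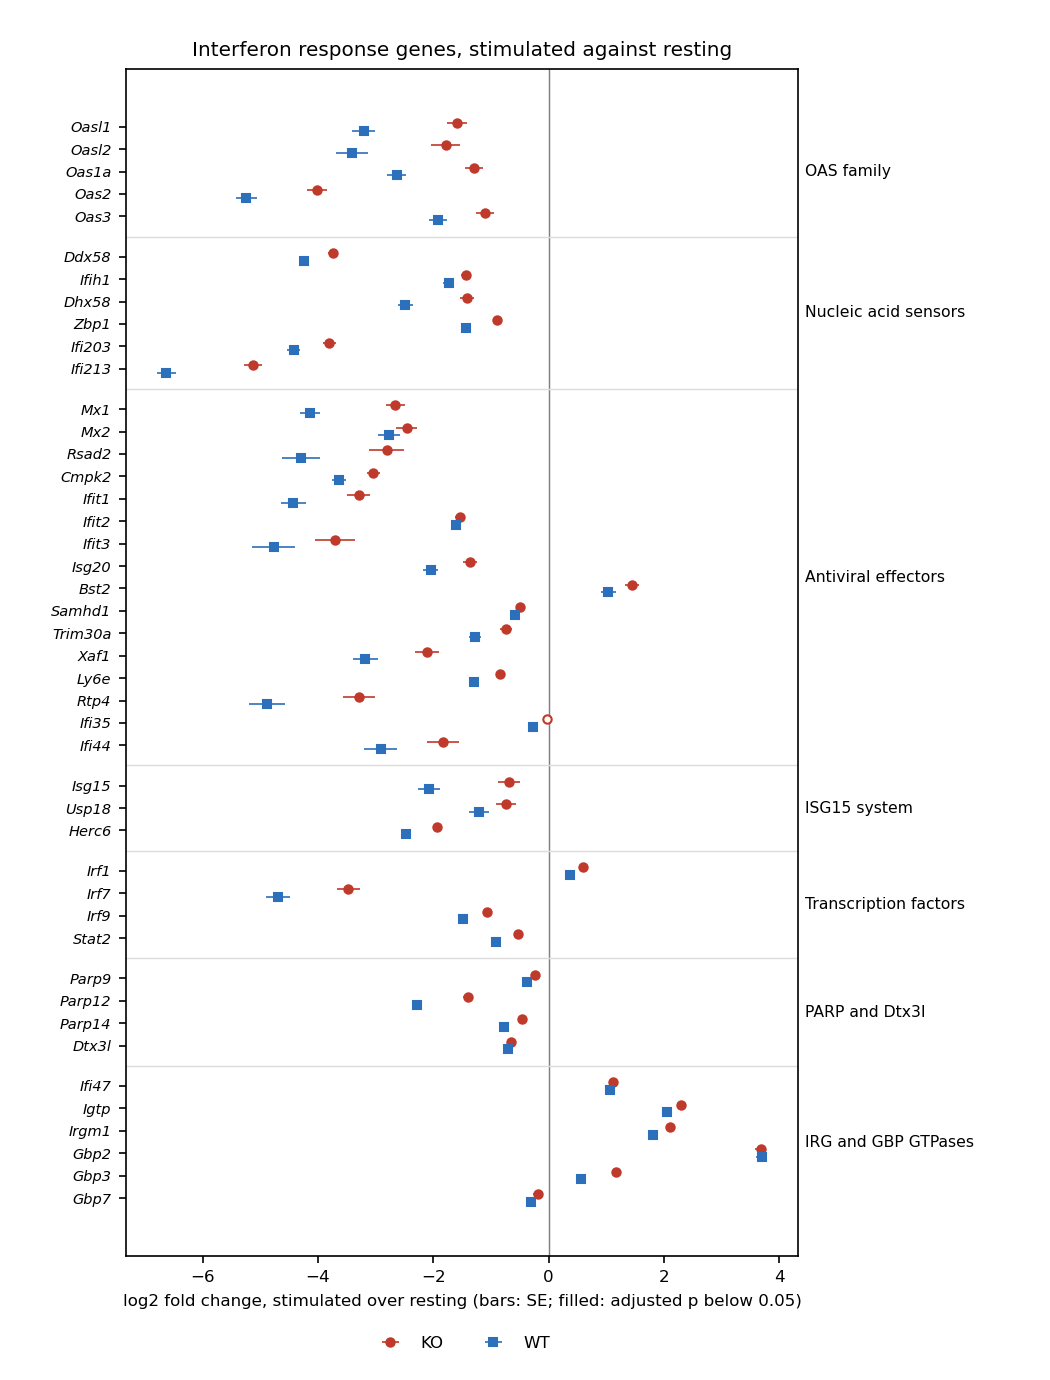
Log2 fold change of stimulated over resting cells for the 44 members, grouped by role, in KO (circles) and WT (squares), with SE bars and filled symbols where the adjusted p was below 0.05. Ifi213 lies farthest to the left, at -5.13 in KO and -6.63 in WT cells, Gbp2 farthest to the right, at 3.68 in KO and 3.70 in WT cells, and the only open symbol is Ifi35 in KO cells.

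The difference between the genotypes' responses to stimulation was tested directly, as the log2 response in KO minus that in WT cells. It was above 0 and passed for 9 members and was below 0 and passed for none, where 0.556% and 0.137% of all genes did. The 9 were Oasl1, Oas1a, Dhx58, Ifi213, Mx1, Isg15, Herc6, Parp12 and Gbp3. The median difference over the members was 0.54, against -0.01 over all genes, and 43 of 44 members had a difference above 0, against 48.6% of all genes. The test uses the same 12 libraries as the comparisons above. By Xist and Ddx3y, the sex of the cells changed together with stimulation. A genotype difference that varies with sex therefore cannot be told apart here from one that varies with stimulation. Myeloid, B cell and NK cell markers had differences of the same sign. Above 0 were 17 of 17 myeloid markers (median 1.79, 13 at an unadjusted p below 0.05, 1 past the adjusted threshold). So were 19 of 19 B cell markers (median 0.70, 5 at an unadjusted p below 0.05, 0 past the threshold). The same held for 7 of 7 NK cell markers (median 0.60, 4 at an unadjusted p below 0.05, 0 past the threshold). Erythroid markers mostly went the other way, with 1 above 0 and 6 below (median -0.76, 0 at an unadjusted p below 0.05). The part of these cells in the members' differences was not tested. Oasl1 had the largest among those that passed (1.62 ± 0.26, adjusted p = 0.018, edgeR), from responses of -1.59 in KO and -3.21 in WT cells. For Gbp3 the response was 1.18 in KO and 0.56 in WT cells (difference 0.62 ± 0.10, adjusted p = 0.018). This gene thus rose more in KO cells, whereas the other 8 fell less in KO than in WT cells. A difference of responses also holds the genotype difference at rest. The log2 fold change of KO over WT was -0.40 at rest and 0.23 stimulated for Gbp3, -0.46 and 0.95 for Isg15, and -0.05 and 1.59 for Oasl1. The response of Gbp2 did not differ detectably (-0.02 ± 0.12, adjusted p = 0.96). The number of members that passed was 2 without stimulated KO replicate 2 or without replicate 3, in fits that called 31 and 27 of all genes, against 121 with all libraries. It was 22 without stimulated WT replicate 2 and 22 without resting WT replicate 3, in fits that called 217 and 1646 genes, and 29 by DESeq2's Wald test, which called 1012 genes.

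The calls between KO and WT in stimulated cells also rested on which libraries were used. Leaving out 1 library at a time gave 13, 8 and 10 members higher without stimulated KO replicates 1, 2 and 3, and 15, 30 and 13 without stimulated WT replicates 1, 2 and 3. The same fits called 221, 128 and 161 of all genes without a KO library and 458, 1408 and 262 without a WT library, against 719 with all 6. Oasl1, Oas1a, Dhx58, Ifi213, Mx1, Herc6, Irf9 and Parp12 passed in all 6 of these fits. Oasl2, Zbp1 and Ifi203 passed in 1 of 6, and Ddx58, Gbp2 and Gbp3 in 2 of 6.

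B cells and myeloid cells carry many of these transcripts too, so their markers were measured beside the members. In bulk samples fewer cells of a type and less RNA per cell cannot be told apart. In stimulated cells the 19 B cell markers summed to 1114, 1119 and 1134 CPM in KO libraries, against 554, 923 and 749 CPM in WT libraries, and the 17 myeloid markers summed to 130, 128 and 125 CPM in KO against 68.4, 98.2 and 76.5 CPM in WT libraries. Both sums separated the genotypes, with KO higher, 1.51-fold for B cell and 1.57-fold for myeloid markers by the group means. The 5 OAS genes summed to 41.5, 46.7 and 44.1 CPM in KO against 20.3, 28.8 and 17.4 CPM in WT libraries, a ratio of 1.99. No marker of either list was at 0 counts over the stimulated libraries. The sum over 14 markers of CD4 T cells was 3661 ± 52.3 CPM in KO and 3651 ± 31.4 CPM in WT cells.

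By gene, 2 of 19 B cell markers rose in stimulated KO cells, Ighd and Cd72, and none fell, with a median log2 fold change of 0.68. All 19 were above 0, 17 at an unadjusted p below 0.05, and in 18 every KO library lay above every WT library, as in 13.4% of all genes tested. Of 17 myeloid markers 8 rose and none fell, with a median of 0.77, 16 above 0 and 12 without overlap of the genotypes. Csf1r, the receptor of the macrophage growth factor, had 1.50, 2.05 and 1.86 CPM in KO against 0.950, 1.16 and 0.638 CPM in WT libraries (adjusted p = 0.036, edgeR). Among markers of other cells, 1 of 4 for dendritic cells (Flt3), 1 of 2 for CD8 T cells and 0 of 7 for NK cells rose. All 7 NK cell markers were above 0, 2 at an unadjusted p below 0.05, and 4 were without overlap. Of 5 erythroid markers tested, all 5 were below 0 (median -1.05), and of 5 neutrophil markers tested, all 5 were above 0 (median 0.35). None of these passed. The erythroid sum was 79.9 CPM in stimulated WT replicate 2, against 20.5 and 22.2 CPM in WT replicates 1 and 3. For neutrophil markers it was 25.3 CPM, against 1.12 and 3.21 CPM. Stimulated WT replicate 2 had the highest B cell, myeloid and OAS sums of its group, while WT replicate 3 had a higher B cell sum than WT replicate 1 and a lower OAS sum.

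With the mean log2 level of the B cell markers as a covariate, 0 members passed in either direction in stimulated cells (15 higher and 1 lower at an unadjusted p below 0.05), and the median member log2 fold change was 0.26. Over all genes, 11 passed in that fit, and Pkm was among them (adjusted p = 1.0e-06). With the myeloid markers as the covariate, Irf9 (adjusted p = 0.038) and Gbp7 (adjusted p = 0.029) were higher, Bst2 was lower (log2 -0.25, adjusted p = 0.011), and the median was 0.22, in a fit that called 1147 of all genes. The marker levels did not overlap between the genotypes in these libraries, at 4.51 to 4.59 in KO against 3.47 to 4.21 in WT for B cell and 1.52 to 1.74 in KO against 0.863 to 1.43 in WT for myeloid markers (mean log2 CPM). The parts of genotype and of marker level in the stimulated differences therefore cannot be told apart here.

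At rest the B cell markers summed to 2210 ± 24.0 CPM in KO cells and, in WT replicates 1, 2 and 3, to 3212, 2332 and 1540 CPM. The myeloid markers summed to 1173 ± 30.1 CPM in KO cells and to 3538, 1970 and 1309 CPM in the 3 WT libraries. Across the resting WT libraries the highest sum was 2.09 times the lowest for B cell and 2.70 times for myeloid markers, against 1.14 times for the OAS genes and 1.04 times for all 44 members. Sums weigh the abundant genes most. Over the resting WT libraries 9 of the 44 members had the order of the marker sums, with replicate 1 highest and replicate 3 lowest. The share of all genes with that order was not measured, so nothing is read from this count. Among these 9 members, Rsad2 had 22.69, 13.19 and 10.98 CPM, Bst2 65.1, 50.1 and 46.3 CPM and Ly6e 1097, 954 and 924 CPM in WT replicates 1, 2 and 3. By gene, 14 of 19 B cell markers were above 0 in resting KO against WT cells and 5 below, with a median log2 fold change of 0.20, and none passed. All 17 myeloid markers had negative estimates in resting KO against WT cells, with a median log2 fold change of -1.20, and none passed. Members with negative resting estimates thus stood beside lower myeloid marker sums in KO cells. The part of these cells in the resting differences was not tested beyond the covariate fits. With the myeloid covariate 0 members passed, as without it, and 11 were lower at an unadjusted p below 0.05, again as without it. With the B cell covariate 4 members passed as lower (Bst2, Isg15, Parp12 and Gbp3). Those fits called 75 and 982 of all 16637 genes.

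**Figure D4:**
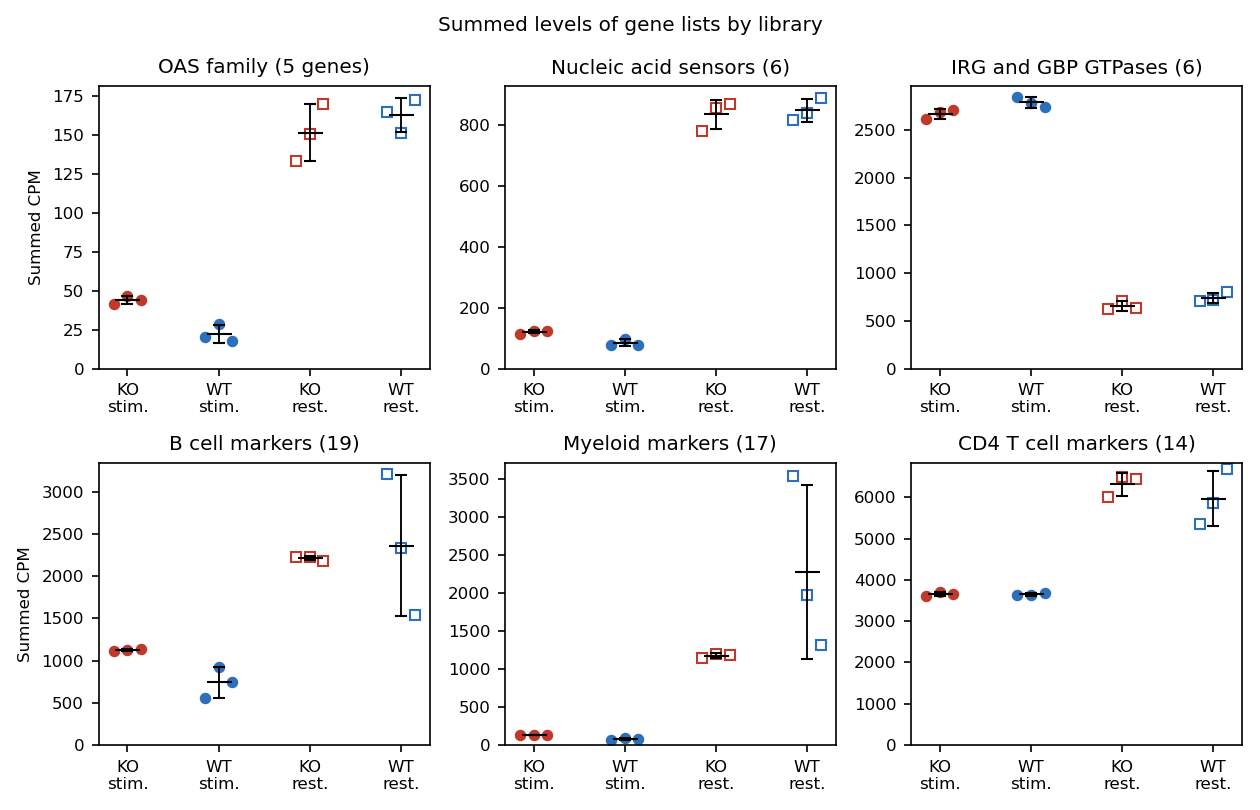
Summed CPM of 3 roles of interferon response genes (top) and of B cell, myeloid and CD4 T cell markers (bottom) in each library, with stimulated KO, stimulated WT, resting KO and resting WT libraries from left to right and the mean with SD as black bars. In stimulated cells the KO libraries lie above the WT libraries for the OAS genes, the sensors and the B cell and myeloid markers, below them for the GTPases, and level with them for the CD4 T cell markers.

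The genes upstream of the response were measured in the same libraries. Of the interferon genes themselves only Ifng, which encodes interferon gamma, had enough counts to test. It stood at 63.3, 43.3 and 79.7 CPM in stimulated KO libraries, against 36.4, 104 and 45.6 CPM in stimulated WT libraries. The groups overlapped widely, with a log2 fold change of 0.01 ± 0.52 (adjusted p = 1.0, edgeR). It was higher in stimulated than in resting cells, by 4.83 on the log2 scale in KO and by 3.99 in WT cells, and these responses did not differ detectably (adjusted p = 0.55). The 20 genes of type I and type III interferons had 62 counts in all 12 libraries together, 1 in stimulated KO, 13 in stimulated WT, 26 in resting KO and 22 in resting WT cells, and 12 of them had none. Differences in these ligands were not detectable at this depth.

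Of 9 genes for interferon receptors and their kinases, 2 rose in stimulated KO cells and none fell, against 3.37% and 1.40% of all genes tested. Ifnar1, a chain of the type I receptor, stood at 50.3, 49.6 and 50.7 CPM in KO against 44.6, 42.9 and 44.2 CPM in WT libraries (1.15-fold, adjusted p = 0.015, edgeR). Ifngr1, the ligand-binding chain of the interferon gamma receptor, stood at 32.5, 33.4 and 35.5 CPM in KO against 29.0, 28.4 and 30.2 CPM in WT libraries (1.16-fold, adjusted p = 0.028). In both genes the margin was small, and every KO library lay above every WT library, as for 13.4% of all genes tested.

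Of 11 genes of upstream sensing and signalling, 4 rose and 1 fell in stimulated KO cells, where 3.37% of all genes tested rose and 1.40% fell. Tlr9, an endosomal receptor for DNA that B cells and dendritic cells are known to express, stood at 5.37, 5.03 and 6.39 CPM in KO against 1.99, 2.70 and 2.29 CPM in WT libraries (2.42-fold, adjusted p = 0.0020, edgeR). Unc93b1, the chaperone of the endosomal receptors, and Tlr7, a receptor for RNA, rose 1.60-fold (adjusted p = 0.043) and 1.41-fold (adjusted p = 0.049). Ikbke, a kinase that can phosphorylate IRF factors, rose 1.14-fold (adjusted p = 0.033). Tmem173, which encodes the adaptor STING, fell, to 164, 159 and 166 CPM in KO against 193, 198 and 193 CPM in WT libraries (0.841 of the WT level, adjusted p = 0.0024). The 4 genes that rose did so beside the higher B cell and myeloid marker sums given above, and the part of those cells was not tested gene by gene.

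Of 7 negative regulators 1 rose, Adar, which edits double-stranded RNA (1.11-fold, adjusted p = 0.032, edgeR), and none fell. Of 66 other interferon-induced genes outside the 44, 26 rose and none fell in stimulated KO cells, with a median log2 fold change of 0.21. Among all genes tested, 3.37% rose and 1.40% fell. Ifi207, a p200 gene, had 3.14 ± 0.0346 CPM in KO and 0.930 ± 0.431 CPM in WT cells (3.41-fold, adjusted p = 0.0084). Ifi204, another p200 gene, rose 2.55-fold (adjusted p = 0.048), and Ifitm3, which blocks the fusion of viruses with the cell, rose 2.13-fold (adjusted p = 0.0079). In resting cells 0 genes of each of these lists passed between KO and WT by the same test. At an unadjusted p below 0.05, 14 of the 66 other interferon-induced genes, 1 of 9 receptor or kinase genes and Ifng were lower in resting KO cells and none was higher. Of all genes tested, 8.11% were lower and 5.61% higher at that threshold.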

How the data were processed

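The deposited values are expected counts, the estimated reads of each gene from RSEM, in a table for the resting and a table for the stimulated libraries. STAR 2.7.0f, RSEM 1.3.1, cutadapt 1.18, bcl2fastq 2.20 and the build mm10 are listed in the submitters' processing notes. The library kit was stranded, per the labels' protocols, and the sources used here do not give the strand setting of the counting, so the 19 members that overlap another gene in the GENCODE M21 annotation carry some uncertainty. Groups and replicate numbers came from the library titles.

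Here expected counts were rounded, and genes were filtered by filterByExpr at its defaults (a count of 10, a total of 15). TMM scaling and the robust quasi-likelihood F-test came from edgeR 4.0.16 in R 4.3.3, with Benjamini-Hochberg adjustment over all genes and calls at an adjusted p below 0.05. The genotypes were compared in the 6 stimulated and in the 6 resting libraries. Stimulation in each genotype and the difference of responses came from a fit of all 12 libraries, over which CPM were also computed; fold changes are not ratios of CPM means. CPM per kb divides by merged exon length. All 44 members passed the filter in each comparison. Library totals ran from 63266477 to 76891786 counts, and about 7.0% of values were not whole; no pair of replicates was as close as sampling noise. A floor of 3 counts is 0.0390 to 0.0474 CPM and covers counting error only.

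The alternatives were DESeq2's size factors, the DESeq2 1.42.0 Wald test, other filters, a fit without robust estimation, more or fewer libraries in the fit, a replicate block, each library left out, and marker covariates (mean log2 of CPM plus 0.5). The scripts were tested on simulated data. The members, the gene lists and the tests were chosen with earlier results of these data known. All members could be named. Values in every library were given per role for those that passed between stimulated KO and WT cells, at most 4 by size of change, or the 2 with the highest mean; from other lists up to 4 that passed were named. Some genes of these lists are not reported here. Isg15, Irf7, Csf1r, the other resting examples and the members described under stimulation were chosen after their values were seen.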

Additional observations from a re-analysis of the deposited data

Results flagged for a closer look

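In 9 members the response to stimulation differed between the genotypes by the test of the difference itself (log2 response in KO minus that in WT cells, edgeR, 3 libraries a group). The difference was 1.62 for Oasl1, 1.33 for Oas1a, 1.07 for Dhx58, 1.51 for Ifi213, 1.49 for Mx1, 1.38 for Isg15, 0.54 for Herc6, 0.89 for Parp12 and 0.62 for Gbp3. Adjusted p ran from 0.014 for Parp12 to 0.048 for Isg15. The first 8 of these genes fell less with stimulation in KO than in WT cells, and Gbp3 rose more in KO cells. Among all genes tested the difference passed above 0 for 0.556% and below 0 for 0.137%. With each of the 12 libraries left out in turn, Parp12 passed in 12 fits, Mx1 in 11, Oasl1 and Dhx58 in 10, Ifi213 in 9, Gbp3 in 8, Oas1a in 6, Herc6 in 4 and Isg15 in 2. The median difference was 1.79 over 17 myeloid markers and 0.70 over 19 B cell markers, and their part in these results was not tested. The sex of the cells changed together with stimulation, so the parts of the 2 in these differences cannot be told apart.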

How the results depend on the processing

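The 7 members higher and 37 lower with stimulation in WT cells kept these counts under each alternative run, and in KO cells the counts were 7 higher and 35 to 36 lower, with Gbp7 the member lost. Between KO and WT in stimulated cells the number higher was 17 to 26 under the size factors, the Wald test, the filters, the non-robust fit, the block and all 12 libraries, and 8 to 30 (lower: 0 to 1) with each library left out. It was 0 with the B cell and 2 with the myeloid covariate, and the number lower was 0 with the B cell covariate and 0 with all 12 libraries. Bst2, with a log2 fold change of 0.04, was -0.25 with the myeloid covariate, where it passed as lower. In resting cells the number lower was 4 by the DESeq2 Wald test, 2 with all 12 libraries and 4 with the B cell covariate. For the difference of responses the number higher was 29 by the DESeq2 Wald test, 15 with a filter of 1 CPM, and 2 to 22 with each library left out. The cause of these changes was not tested.

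Over all genes, the stimulated comparison called 719 genes, 11 with the B cell covariate, 1147 with the myeloid covariate, 1133 by the Wald test, 219 with all 12 libraries and 128 to 1408 with each library left out. The resting one called 6 genes, 518 by the Wald test, 40 without a filter, 161 with all 12 libraries, 982 with the B cell covariate, 75 with the myeloid covariate and 2 to 18 with each library left out. The difference of responses called 121 genes, 1012 by the Wald test, 204 with the 1 CPM filter and 27 to 1646 with each library left out.

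With the replicate number as a block, 26 members were higher and 1 lower in stimulated cells, 0 and 0 in resting cells, and 9 and 0 in the difference. In these 3 fits 997, 5 and 95 of all genes passed, against 719, 6 and 121 without the block. Same-numbered KO and WT libraries did not deviate together in each pair (correlations 0.33, -0.11 and 0.27 at rest, -0.03, 0.01 and 0.02 stimulated). Resting KO replicates 1 and 3 correlated best with their own WT number, and resting replicate 2 and the stimulated KO libraries did not. Each stimulated KO library correlated best with its own number at rest, but weakly (0.06, 0.01 and 0.04). Of the stimulated WT libraries only replicate 3 did so (correlations with the same number -0.13, -0.01 and 0.05). Such correlations over few libraries cannot settle whether the numbers pair KO with WT libraries. Across conditions, every resting library had the Y-linked Ddx3y and every stimulated library had none, with Xist high only in the stimulated ones. By these transcripts a resting and a stimulated library of the same number do not come from the same animal. Depth limits the least abundant members: Mx1 had 425 counts over the stimulated KO and 171 over the stimulated WT libraries.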
